A study of Mus musculus with 13 samples.

Results

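The 10 genes described here encode C-type lectins and scavenger receptors: Mrc1, Clec4n, Clec4e, Clec4d, Clec7a, Msr1, Marco, Cd36, Cd163 and Scara5. They were picked by symbol, and the choice was made with the values of the authors' 3 deposited tables known. All but Cd163 are among the 1592 genes that appear in at least 1 of those tables. RNA was sequenced from 13 samples of cultured astrocytes, from C57BL/6 pups of wild-type genotype aged postnatal days 1 to 3, whose retinas and optic nerves were the source, kept in medium with serum. SB431542, an inhibitor of the receptor kinases for TGF-beta and activin, was given to 3 samples. HLM006474, an inhibitor of E2F transcription factors, and an inhibitor of the transcription factor RUNX1 and its partner CBFB, called the RUNX1 inhibitor below, were given to 3 samples each, and vehicle to 4. Whether any effect came through these proteins was not tested. All were treated for 24 h, and doses are not given in the labels. Each table sets 1 compound against the same vehicle samples, so the 3 comparisons share their vehicle libraries. Values per sample were not analysed here, and the depth of the libraries is unknown. The labels do not say whether replicates were separate litters, animals or dishes, so p-values reflect a spread that could be technical.

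C-type lectin receptors bind sugars on microbes and dying cells through a folded lectin domain. Several of them signal through an immune adaptor chain and the kinase SYK, while the mannose receptor mainly takes up its ligands. Scavenger receptors bind modified lipoproteins, microbial surfaces and debris and carry them into the cell. In the brain and retina most of these genes are known from microglia and from macrophages of the vessels and meninges rather than from astrocytes, and Scara5 is known from epithelial and mesenchymal cells.

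Of the 10 genes, 5 lie on mouse chromosome 6 (GRCm38, GENCODE M21). Clec4n (chr6:123229843-123247021, + strand), Clec4d (chr6:123262111-123275265, + strand) and Clec4e (chr6:123281789-123289870, - strand) are neighbours. Cd163 (chr6:124304656-124330527) and Clec7a (chr6:129461591-129472779) lie farther along. Clec7a is annotated there as a polymorphic pseudogene, and the other 9 as protein-coding. Mrc1 is at chr2:14229392-14332057, Marco at chr1:120474538-120505024, Msr1 at chr8:39581685-39642673, Cd36 at chr5:17781690-17888801 and Scara5 at chr14:65666403-65764826. No annotated gene overlaps any of them except the microRNA gene Mir511, which lies inside Mrc1 on the same strand. Of the 50-base words in their transcripts, at most 0.686% (Clec4n, shared with Gm44147) also occur in a transcript of a gene outside these 10. Words shared among the 10 were not counted.

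RefSeq promoter windows of GRCm38.p6 were matched for 7 of the 10 genes. Missing entries were Clec4n, Msr1 and Scara5. The starts used can differ from the gene places above. The Cd36 window (chr5:17835897-17836146) lies inside the annotated gene, and the Mrc1 window runs past the annotated start. The 250 bases before the start are shown for the 4 genes in which a searched motif was found. Capitals mark GAGGAAG or its reverse complement, a form of the site of the myeloid factor PU.1, and TGTGGT, a form of the RUNX site.
Mrc1 (chr2:14229164-14229413, + strand): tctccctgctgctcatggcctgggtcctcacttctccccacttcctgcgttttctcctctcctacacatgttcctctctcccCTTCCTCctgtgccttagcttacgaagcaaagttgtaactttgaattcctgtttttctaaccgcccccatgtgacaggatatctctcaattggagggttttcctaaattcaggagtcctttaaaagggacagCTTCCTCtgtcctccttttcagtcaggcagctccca
Marco (chr1:120505025-120505274, - strand): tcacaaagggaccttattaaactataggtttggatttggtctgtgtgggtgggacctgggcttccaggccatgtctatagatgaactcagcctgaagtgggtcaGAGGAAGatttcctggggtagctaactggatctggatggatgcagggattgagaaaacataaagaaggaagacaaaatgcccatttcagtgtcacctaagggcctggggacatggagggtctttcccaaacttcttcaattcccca
Clec4d (chr6:123261857-123262106, + strand): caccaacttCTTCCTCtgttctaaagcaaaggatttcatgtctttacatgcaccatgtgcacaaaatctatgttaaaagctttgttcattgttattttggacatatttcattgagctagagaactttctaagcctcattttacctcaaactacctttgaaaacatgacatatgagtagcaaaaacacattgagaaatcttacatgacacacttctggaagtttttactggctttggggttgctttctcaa
Clec4e (chr6:123289872-123290121, - strand): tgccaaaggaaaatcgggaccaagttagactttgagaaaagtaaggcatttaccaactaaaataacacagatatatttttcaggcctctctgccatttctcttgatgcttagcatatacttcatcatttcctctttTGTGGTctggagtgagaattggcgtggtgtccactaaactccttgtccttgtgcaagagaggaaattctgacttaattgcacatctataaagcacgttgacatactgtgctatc
GAGGAAG was present on either strand in 3 of the 7 windows (Mrc1, Marco and Clec4d) and in 10.6% of all 32851 windows of that length. TGTGGT was present in 1 of the 7, that of Clec4e, and in 14% of all windows. The AP-1 letters TGANTCA, the NRF2 letters TGACNNNGC, the SMAD letters GTCTAGAC and CAGACA, and the E2F letters TTTGGCGC, TTTCCCGC and TTTCGCGC were in none of the 7 windows. They were in 6.75%, 10.2%, 0.167%, 17.1% and 1.53% of all windows, in that order and with the 3 E2F forms counted as one. No searched motif overlapped another. A match describes these letters only.

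SB431542 listed most of the receptor genes, and nearly all of those rose. Of the 10, 8 were higher, Scara5 was lower and Cd163 was not listed in the authors' deposited table. HLM006474 listed 4, Clec4n, Clec4d, Clec7a and Cd36, all higher. The RUNX1 inhibitor listed 2, Scara5 higher and Clec4n lower. A gene is listed where its adjusted p is below 0.05 and its fold about 1.5 or larger. Of all genes tested, the tables list 4.93% for SB431542 (2.29% higher, 2.64% lower), 5.64% for HLM006474 (1.42% higher, 4.22% lower) and 2.93% for the RUNX1 inhibitor (0.605% higher, 2.32% lower). Because the genes were chosen from these same comparisons, their counts are a description and nothing is read from their excess over those shares. In bulk RNA, fewer cells of a type and less RNA per cell cannot be told apart.

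**Figure D1:**
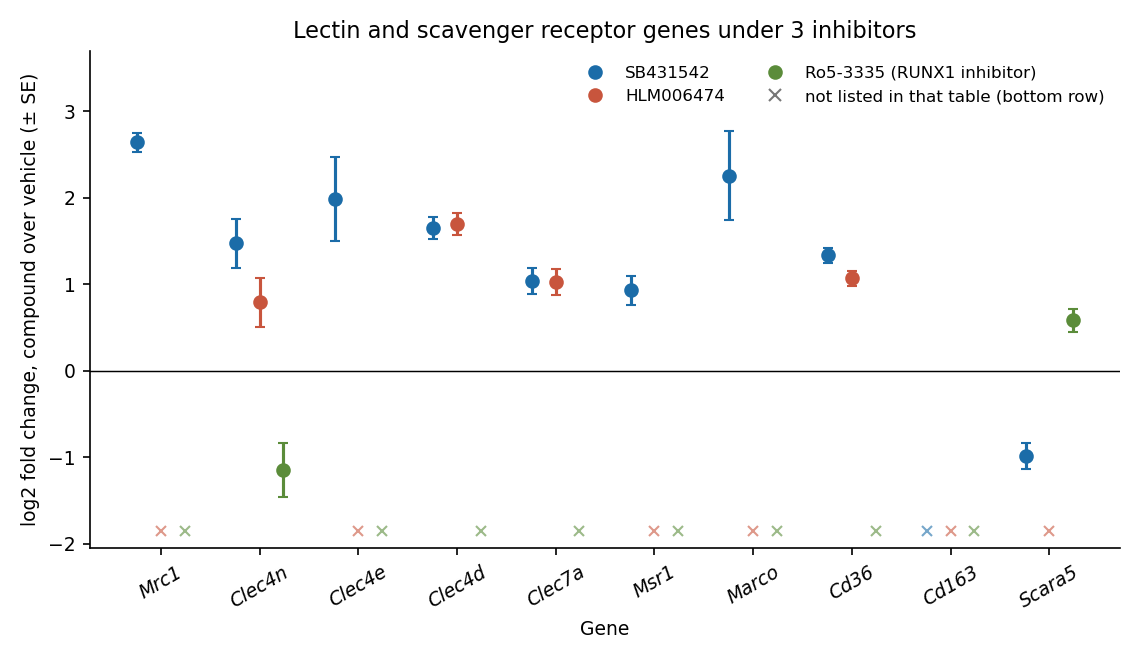
Log2 fold change of each receptor gene against vehicle (vertical axis, log2 units, bars are the authors' standard errors) for SB431542, HLM006474 and the RUNX1 inhibitor, with crosses in the bottom row where a gene is not listed. The points for SB431542 lie above 0 for 8 genes and below it for Scara5, and Clec4n is the one gene with a point for each compound.

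Mrc1, the macrophage mannose receptor, is the member with the highest count and, by point estimate, the largest rise. Its mean normalised count over the 13 libraries was 1929.3 in the authors' deposited table. Under SB431542 it rose 6.23-fold (95% interval 5.38 to 7.22), 2.64 ± 0.108 on the log2 scale (SE), in the authors' deposited table. That gave the lowest adjusted p of the 347 higher genes, 3.05e-128 by the authors' DESeq2 fit, and the 11th largest fold. The wider 95% intervals of Marco (2.37 to 9.63) and Clec4e (2.05 to 7.7) under SB431542 include the Mrc1 fold, so these rises cannot be ranked. Neither HLM006474 nor the RUNX1 inhibitor listed Mrc1. With the standard error it had under SB431542, a change past 1.5-fold would have passed the p limit, so its change under those compounds is taken to lie within 0.58 on the log2 scale. On that reading the SB431542 fold change exceeds each of the other two by at least 2.06, on a log2 scale where that gap has an SE of 0.153.

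Group levels can be approximated for 7 of the genes, because the mean count averages all 13 libraries and the fold changes relate the groups to vehicle. For Mrc1 this gives a normalised count of 4936 to 5853 in SB431542 samples, 574 to 1285 in HLM006474 samples, 575 to 1285 in RUNX1 inhibitor samples and 792 to 939 in vehicle samples. These ranges reflect only what is unknown about unlisted fold changes, not the spread between replicates. A group whose change is unlisted overlaps vehicle by construction, so nothing is read from overlap of the ranges.

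**Figure D2:**
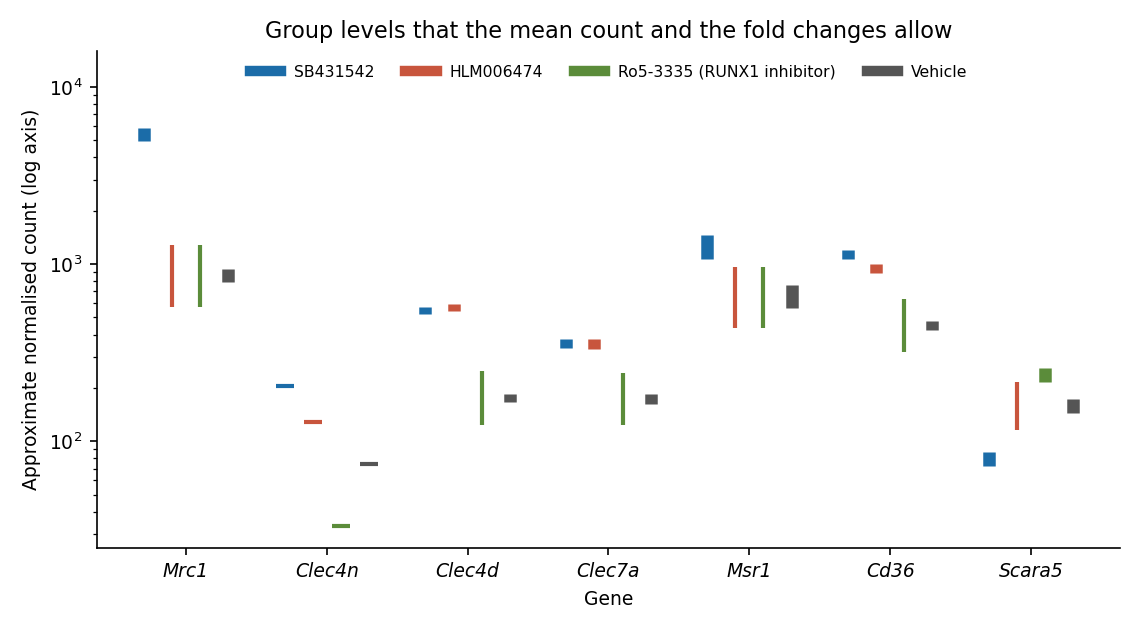
Approximate normalised count (vertical log axis) of 7 receptor genes in SB431542, HLM006474, the RUNX1 inhibitor and vehicle samples. Thick bars span the values allowed where the fold change is listed or for vehicle, thin bars where the gene is not listed, and a dash marks Clec4n, whose 3 fold changes are all listed.

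Clec4n, Clec4d and Clec4e, the Dectin-2 cluster lectins, all rose under SB431542. Clec4n, which encodes Dectin-2, a receptor for the mannose-rich glycans of fungi, had a mean normalised count of 107.7 in the authors' deposited table. It stood at 1.48 ± 0.282 (log2, SE) under SB431542, 0.79 ± 0.285 under HLM006474 and -1.15 ± 0.312 under the RUNX1 inhibitor in the authors' deposited tables. As folds over vehicle, the authors' deposited tables give 2.78 (95% interval 1.9 to 4.08), 1.73 (1.17 to 2.55) and 0.451 (0.295 to 0.689). The approximate normalised counts were 206 in SB431542, 128 in HLM006474, 33.4 in the RUNX1 inhibitor and 74.1 in vehicle samples. Clec4n is the only one of the 10 genes in all 3 tables, and was higher with 2 compounds and lower with the third. Its adjusted p was weakest for HLM006474, at 0.0261 by the authors' DESeq2 fit.

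Clec4d encodes MCL, a lectin that pairs with the Clec4e product and takes part in sensing mycobacterial glycolipid. Its mean normalised count was 355.2 in the authors' deposited table. It rose by 1.65 ± 0.127 (log2, SE) under SB431542 and by 1.70 ± 0.127 under HLM006474 in the authors' deposited tables, 3.13-fold and 3.25-fold. The approximate normalised counts were 523 to 574 in SB431542, 544 to 597 in HLM006474, 123 to 250 in the RUNX1 inhibitor and 167 to 184 in vehicle samples. SB431542 and HLM006474 samples stood at similar heights, above vehicle.

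Clec4e encodes Mincle, a receptor for mycobacterial cord factor and for a nuclear protein released by dying cells. It was rarer, with a mean normalised count of 41.1 in the authors' deposited table. Under SB431542 it rose by 1.99 ± 0.487 (log2, SE), or 3.97-fold with a 95% interval of 2.05 to 7.7, in the authors' deposited table. It is not listed for HLM006474 or the RUNX1 inhibitor, and with that standard error a change of up to 1.21 or 1.26 on the log2 scale could have missed their p limits. Whether Clec4e changed less under those compounds than under SB431542 can therefore not be told from its absence.

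The cluster holds other lectins that were not chosen as members. Within 500 kb of the Clec4d start there are 17 protein-coding genes, of which 9 are Clec4 lectins that span 368 kb (chr6:122921848-123289870). SB431542 listed 6 of those 9, HLM006474 listed 2 and the RUNX1 inhibitor listed 1, by the authors' deposited tables. In that order, 4.93%, 5.64% and 2.93% of all genes tested were listed. Of the 6, 3 are receptor genes chosen from these same values. The 8 other genes of the window are in no table, and whether they were tested is unknown. The 3 further lectins listed for SB431542 are Clec4a1 at 2.59 ± 0.378, Clec4a3 at 1.8 ± 0.31 and Clec4a2 at 1.70 ± 0.372 (log2, SE) in the authors' deposited table. Clec4a2 encodes the inhibitory receptor DCIR. All 3 had low mean normalised counts, between 33.1 and 37.5 in the authors' deposited table. Clec4a4, Clec4b1 and Clec4b2 between them, and C3ar1, the receptor for complement C3a at the edge of the window, are in no table.

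**Figure D3:**
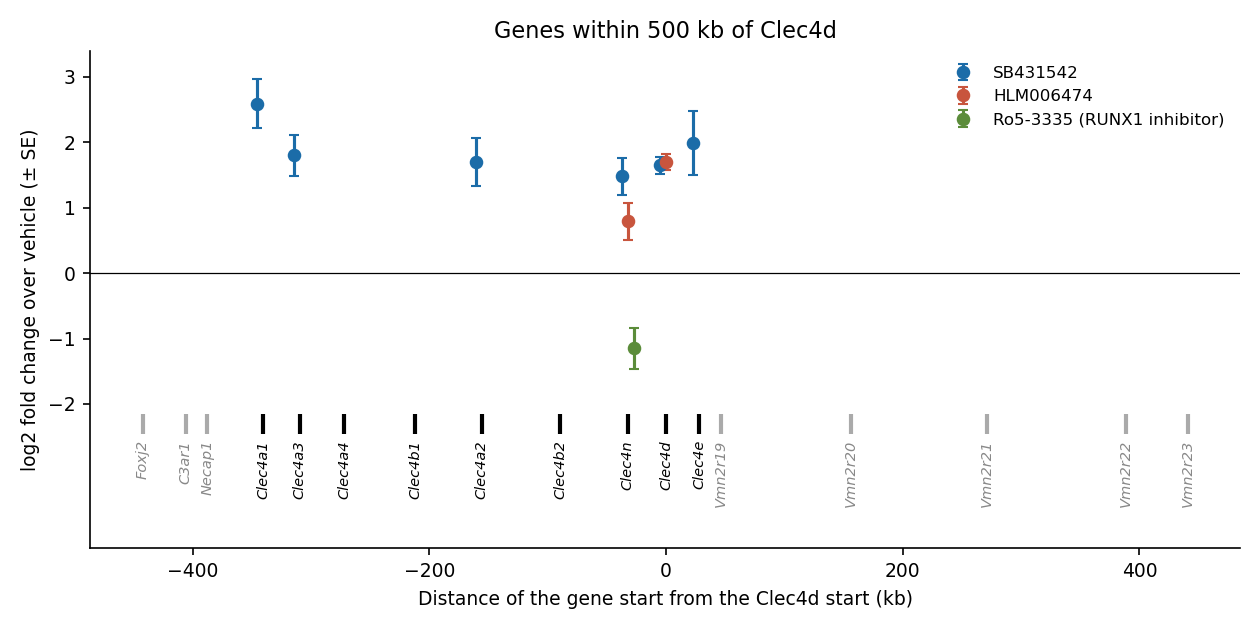
Log2 fold change against vehicle (vertical axis, bars are the authors' standard errors) by distance of each gene's start from that of Clec4d (horizontal axis, kb), with Clec4 lectins named in black and other protein-coding genes in grey. The 6 lectins listed for SB431542 lie between 1.48 and 2.59, and genes without a point are in no table.

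Clec7a encodes Dectin-1, the receptor for fungal beta-glucan, which is also known as a marker of activated microglia. Its mean normalised count was 259.8 in the authors' deposited table. It rose 2.05-fold under SB431542 and 2.04-fold under HLM006474, 1.04 ± 0.154 and 1.03 ± 0.154 on the log2 scale (SE), in the authors' deposited tables. The approximate normalised counts were 334 to 379 in SB431542, 331 to 376 in HLM006474, 124 to 243 in the RUNX1 inhibitor and 163 to 185 in vehicle samples. SB431542 and HLM006474 samples stood at nearly the same level, above vehicle.

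Among the scavenger receptors, Cd36 rose with 2 compounds, while Msr1 and Marco were listed for SB431542 only. Cd36 is a class B receptor for oxidised lipoprotein and long-chain fatty acids. With a mean normalised count of 731.6 it rose by 1.33 ± 0.0865 (log2, SE) under SB431542 and by 1.07 ± 0.0873 under HLM006474 in the authors' deposited tables. The folds were 2.52 (95% interval 2.24 to 2.83) and 2.10 (1.86 to 2.36) in the authors' deposited tables. Approximate normalised counts were 1073 to 1207 in SB431542, 893 to 1004 in HLM006474, 320 to 637 in the RUNX1 inhibitor and 426 to 479 in vehicle samples. The level under the RUNX1 inhibitor is not fixed and may lie above or below vehicle.

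Msr1, the class A scavenger receptor of macrophages, had a mean normalised count of 807.9 and rose by 0.93 ± 0.169 (log2, SE), 1.91-fold, under SB431542 in the authors' deposited table. Its approximate normalised counts were 1072 to 1459 in SB431542 samples, 433 to 968 in HLM006474 and in RUNX1 inhibitor samples, and 562 to 764 in vehicle samples. The SB431542 change of Msr1 lies 0.35 above the fold limit of the other tables on the log2 scale. If an unlisted change is given the same standard error and the shared vehicle is ignored, that gap has an SE of 0.238. Beside the SB431542 standard error of 0.169 alone the gap looks wider, and no difference between compounds is read from it. Marco, another class A receptor that binds bacteria and particles, had a mean normalised count of 44.4 and rose by 2.26 ± 0.516 (log2, SE) under SB431542 in the authors' deposited table. That is 4.78-fold with a 95% interval of 2.37 to 9.63. A change of up to 1.28 under HLM006474 or 1.33 under the RUNX1 inhibitor on the log2 scale could have been missed for Marco.

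Cd163, which takes up haemoglobin bound to haptoglobin, is in none of the 3 tables. It therefore has no level or fold change here, and whether it was tested is unknown.

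Scara5, a class A receptor known in the mouse to take up ferritin, went the other way from the macrophage receptors under SB431542. Its mean normalised count was 160.0 in the authors' deposited table. It stood at -0.99 ± 0.149 (log2, SE) under SB431542 and at 0.58 ± 0.132 under the RUNX1 inhibitor in the authors' deposited tables, folds of 0.504 (95% interval 0.412 to 0.617) and 1.5 (1.25 to 1.79). Approximate normalised counts were 72.4 to 87.3 in SB431542, 116 to 215 in HLM006474, 215 to 259 in the RUNX1 inhibitor and 144 to 173 in vehicle samples. Among the groups with a listed change, SB431542 samples were below vehicle and RUNX1 inhibitor samples above it. The level under HLM006474 is not fixed and may lie above or below vehicle. The RUNX1 inhibitor value of 0.582 lies just inside the smallest listed change of 0.5804 in the authors' deposited table, and it ranks 81st of 82 higher genes by size. The next nearest to a limit was Clec4n under HLM006474.

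**Figure D4:**
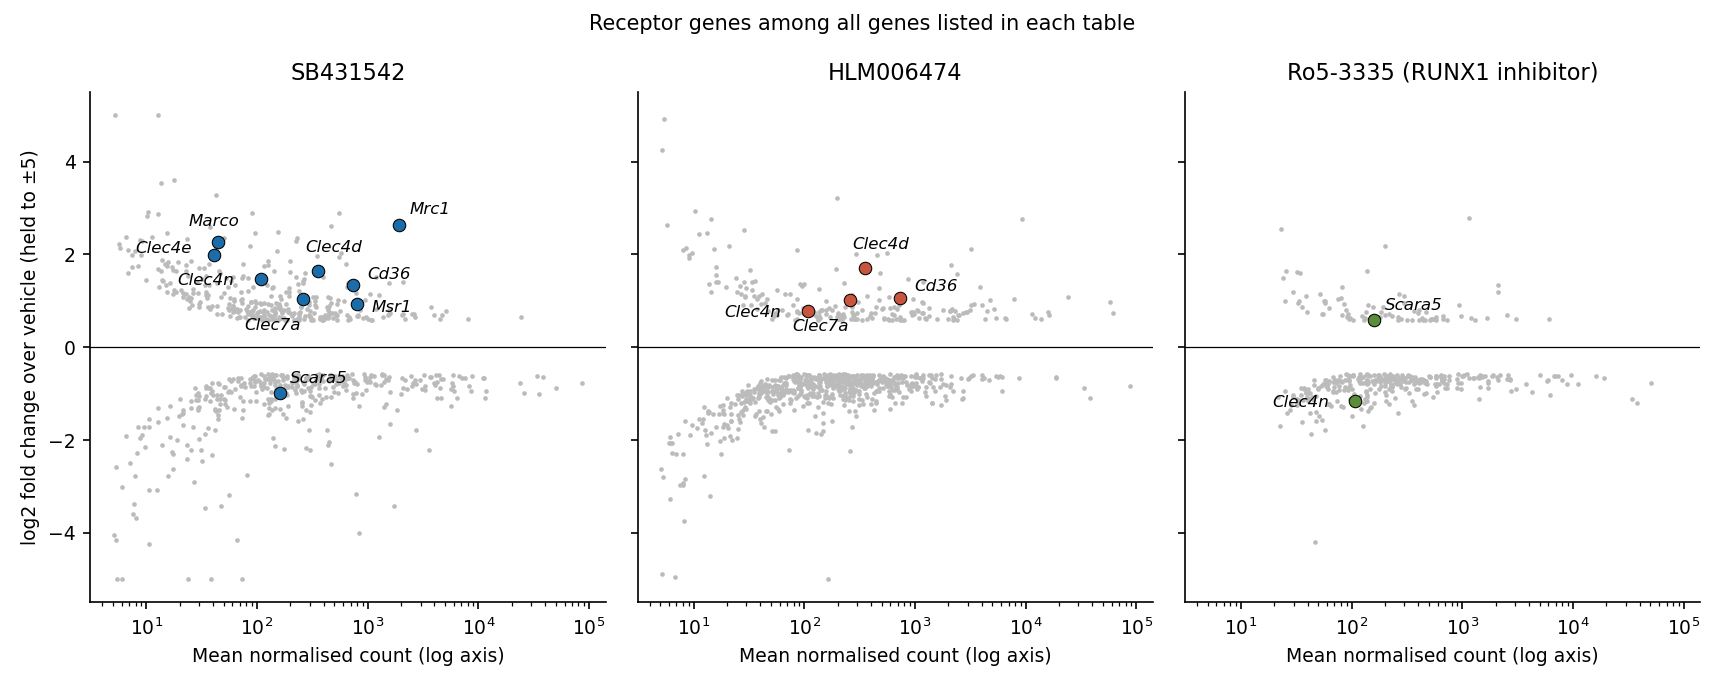
Log2 fold change against vehicle (vertical axis, held to 5 in either direction) by mean normalised count (horizontal log axis) for every gene listed under SB431542, HLM006474 and the RUNX1 inhibitor, with the receptor genes named. Mrc1 stands at 2.64 with a mean count of 1929.3, and Scara5 is at the inner edge of the higher genes under the RUNX1 inhibitor.

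Compounds could be compared directly for the genes listed in both of their tables, over 3 pairs of compounds at unstated doses. Intervals are given as a description with no test, since the genes were chosen with these fold changes known. Clec4d and Clec7a differed between SB431542 and HLM006474 by -0.06 (95% interval -0.41 to 0.29) and 0.01 (-0.41 to 0.44) on the log2 scale. Cd36 was higher under SB431542 than under HLM006474 by 0.26 (0.02 to 0.51), a ratio of 1.2. For Clec4n the same difference was 0.68 with an interval that includes 0 (-0.1 to 1.47). With the variance of the shared vehicle libraries taken out, that interval was 0.09 to 1.28 and excluded 0. SB431542 and the RUNX1 inhibitor were far apart for Clec4n, by 2.62 (1.8 to 3.45), and for Scara5, by -1.57 (-1.96 to -1.18). HLM006474 and the RUNX1 inhibitor differed by 1.94 (1.11 to 2.77) for Clec4n. Clec4d and Cd36 were not listed for the RUNX1 inhibitor. Their SB431542 changes exceeded any change within its fold limit by at least 1.07 (SE 0.179) and 0.75 (SE 0.123). Each SE gives the unlisted change the gene's largest listed standard error and ignores the shared vehicle. For Clec7a that gap was smaller, at least 0.46 (SE 0.217).

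Per kilobase of annotated exon, the mean normalised counts order the genes as Mrc1 (303), Clec4d (222), Cd36 (204), Msr1 (127), Clec7a (98.5), Clec4n (75.8), Scara5 (26.3), Marco (23.1) and Clec4e (8.28). No spread between samples is available for these levels, so neighbours such as Clec4d and Cd36, or Scara5 and Marco, cannot be separated. The order pools treated and vehicle libraries, and which annotation the authors counted on is not known.

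The standard errors of some receptor genes were near those of listed genes of like count, and those of others were above. The comparison is with genes listed for SB431542 whose mean count lay within a factor of 1.2. Under SB431542 the standard error of Clec4d was 0.98 times their median, that of Clec7a was 1.04 times and that of Cd36 was 0.95 times. It was 2.03 times that median for Msr1, 1.66 times for Marco, 1.56 times for Clec4e, 1.52 times for Mrc1 and 1.44 times for Clec4n. The median rests on 28 listed genes for Msr1 and on 11 for Mrc1. Listing favours genes with small standard errors, so these ratios may be too high. Scara5 was the most precise for its count, at 0.85 times. Which libraries lie behind the larger standard errors of Msr1 or Mrc1 is unknown without values per sample.

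**Figure D5:**
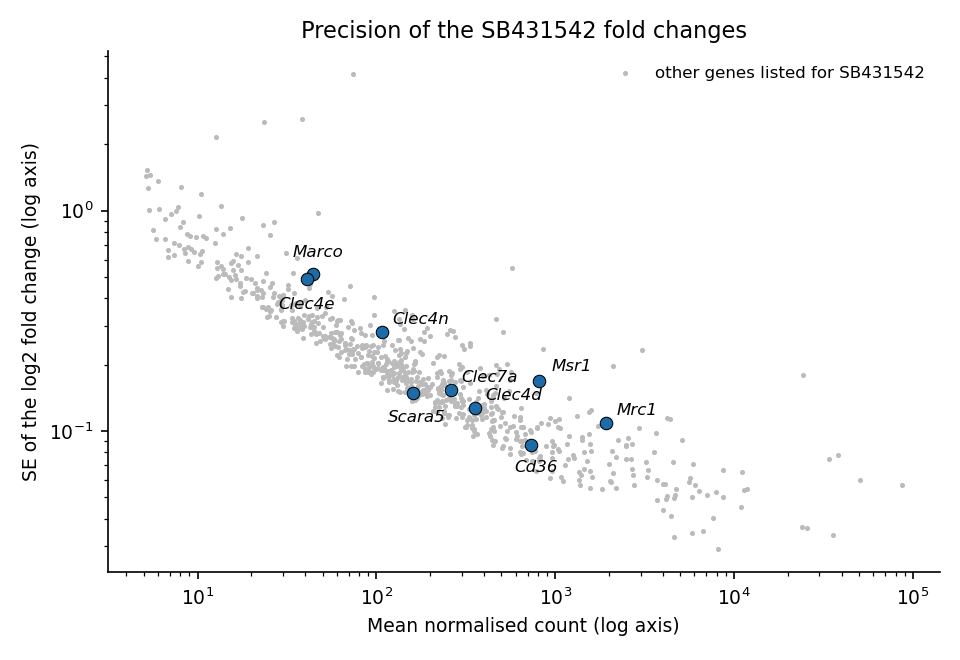
Standard error of the log2 fold change (vertical log axis) by mean normalised count (horizontal log axis) for all genes listed under SB431542, with the receptor genes named. Msr1 lies above the band of genes of like count, at 0.169, and Cd36 within it, at 0.0865.

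Some genes lay near the receptors in the values listed. Each is the nearest of many candidates over 2 or 3 values that carry standard errors, so no shared control is read from nearness. For Clec7a the nearest of 103 genes listed in the same pair of tables was Atf3, a stress-induced transcription factor, at a root mean square distance of 0.013 over 2 comparisons (1.02 and 1.03 in the authors' deposited tables). Next came 9930111J21Rik1 and Cd36, at 0.088 and 0.211. For Cd36 they were Gdf15, a stress-induced cytokine, 9930111J21Rik1 and Pira2, at 0.143, 0.143 and 0.186. For Clec4d they were B430306N03Rik, Fosl1 and Gdf15, at 0.267, 0.34 and 0.412. Scara5 was nearest to Angptl4, an inhibitor of lipoprotein lipase, at 0.415 of 35 candidates, with -1.14 under SB431542 and 1.15 under the RUNX1 inhibitor in the authors' deposited tables. Its next were Ikzf2 and Herc3, at 0.864 and 0.877 and lower under both compounds. No gene was close to Clec4n: the nearest of 56, the myeloid receptor gene Cd300a, was at 1.06 and higher under the RUNX1 inhibitor. Gm4724 and Cd300ld3 followed at 1.087 and 1.09.

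Among the wider receptor families, most of the genes listed under SB431542 were higher. Of 32 other C-type lectin genes SB431542 listed 5 higher and 1 lower, HLM006474 listed 1 lower and the RUNX1 inhibitor none. Those are 18.8%, 3.12% and 0% of the list, beside 4.93%, 5.64% and 2.93% of all genes tested. The gene lists were chosen with earlier results known, so nothing is read from their counts. Apart from the Clec4a genes, SB431542 raised Cd93, a phagocytosis-related receptor of myeloid and endothelial cells, by 1.79 ± 0.112 (log2, SE) in the authors' deposited table. It lowered Mrc2, the collagen uptake receptor related to the mannose receptor, which stood at -0.59 ± 0.101 in the authors' deposited table. The gene lowered by HLM006474 was Clec12a, an inhibitory lectin, at -0.87 ± 0.188 in the authors' deposited table. Of 20 other scavenger receptors SB431542 listed 3, all higher, HLM006474 listed 1, lower, and the RUNX1 inhibitor none (15%, 5% and 0%). Those under SB431542 were Cd14, the lipopolysaccharide co-receptor, at 0.99 ± 0.0985, Cd68, a lysosomal protein of macrophages, at 0.72 ± 0.0751, and Stab2, a hyaluronan receptor, at 3.60 ± 0.924 on a mean count of 17.6 in the authors' deposited table. The one under HLM006474 was Olr1, a receptor for oxidised lipoprotein, at -3.21 ± 1.02 on a mean count of 14.0 in the authors' deposited table.

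Of 20 signalling genes downstream of these lectins SB431542 listed 4, all higher, HLM006474 listed 3 higher and 1 lower, and the RUNX1 inhibitor listed 2, both higher. Those are 20%, 20% and 10%, beside 4.93%, 5.64% and 2.93% of all genes tested. The adaptor Fcer1g, the kinase Syk and the scaffold Card9 are in no table. The exchange factor Vav3 rose by 0.86 ± 0.0979 under SB431542 in the authors' deposited table. The cytokine gene Tnf stood at 1.2 ± 0.292 under SB431542 and at -1.10 ± 0.353 under HLM006474 in the authors' deposited tables. Egr2 and Egr3, transcription factors induced by many stimuli, were higher under all 3 compounds.

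Of 12 lipid handling genes SB431542 listed 5 and HLM006474 listed 2, all higher, and the RUNX1 inhibitor listed none. Those are 41.7%, 16.7% and 0%, beside 4.93%, 5.64% and 2.93% of all genes tested. Lpl, the lipoprotein lipase, rose by 1.51 ± 0.141 and 0.73 ± 0.142 (log2, SE) under SB431542 and HLM006474 in the authors' deposited tables. Lipa rose by 0.69 ± 0.0438 under SB431542 and by 0.91 ± 0.0436 under HLM006474. Pparg, a lipid-activated nuclear receptor and known inducer of Cd36, rose by 1.13 ± 0.284 and Plin2, a lipid droplet coat protein, by 0.65 ± 0.0676 under SB431542 in the authors' deposited table. Of 11 haem and iron genes SB431542 listed 4 and HLM006474 listed 7, all higher, and the RUNX1 inhibitor none (36.4%, 63.6% and 0%). Slc40a1, the iron exporter ferroportin, stood at 2.90 ± 0.152 under SB431542 and at 2.02 ± 0.154 under HLM006474 in the authors' deposited tables. Hmox1, the haem-degrading oxygenase, rose by 2.77 ± 0.15 under HLM006474 in the authors' deposited table. Slc11a1, an iron transporter of phagosomes, rose by 0.62 ± 0.191 under SB431542 and by 1.6 ± 0.189 under HLM006474 in the authors' deposited tables. Ftl1 and Fth1, the chains of ferritin, rose by 0.97 ± 0.0538 and 0.74 ± 0.0667 under HLM006474 in the authors' deposited table, a compound for which the ferritin receptor Scara5 is not listed.

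Markers of other cell types are given beside these changes. Of all genes tested, SB431542 listed 4.93%, HLM006474 5.64% and the RUNX1 inhibitor 2.93%. Of 15 microglia and macrophage markers 8 are in a table, with mean normalised counts of 199.9 to 24249.3 in the authors' deposited tables. SB431542 listed 5 of them lower and 2 higher, HLM006474 listed 3 lower and 1 higher, and the RUNX1 inhibitor none. Under SB431542, where 8 receptor genes were higher, the authors' deposited table has the microglial gene Tmem119 at -4.0 ± 0.109 and Cx3cr1, the fractalkine receptor gene, at -2.21 ± 0.0807. The 2 higher markers there were Cd68, at 0.72 ± 0.0751, and Lyz2, at 0.65 ± 0.18. Lyz2, the listed marker with the highest count, stood at 1.08 ± 0.18 under HLM006474. Of 8 markers of border-associated macrophages, the chemokine gene Pf4 rose by 1.3 ± 0.175 under SB431542, and Cbr2, a carbonyl reductase gene, by 0.86 ± 0.3 in the authors' deposited table. Cbr2 stood at -1.16 ± 0.355 under HLM006474 in the authors' deposited table. Of 8 fibroblast markers 6 are in no table. Col1a1 was lower under SB431542 only, and Pdgfra was lower under HLM006474 only. No endothelial marker of 5 is in a table. Of 7 oligodendrocyte lineage markers SB431542 listed 1 and HLM006474 listed 4, all lower. Of 11 astrocyte markers 2 are in a table, both lower where listed, with mean normalised counts of 23892.5 (Kcnj10) and 18965.4 (Fabp7) in the authors' deposited tables. The potassium channel gene Kcnj10 stood at -0.77 ± 0.0366 under SB431542 in the authors' deposited table. The fatty acid binding protein gene Fabp7 stood at -0.64 ± 0.0554 under HLM006474 and at -0.67 ± 0.0554 under the RUNX1 inhibitor in the authors' deposited tables. The summed level of these markers in each group is unknown, and their part in the changes of the receptor genes was not tested.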

How the data were processed

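RNA of 13 cultured astrocyte samples was sequenced. CASAVA 1.8, STAR 2.7, DESeq2 1.30.1 and the build GRCm38 are named in the submitters' processing notes. How reads were counted, on which annotation and with which strand setting is not known from the sources used. The authors deposited 3 tables of listed genes. Per the file headers these hold a mean normalised count (a signal level over all libraries), a log2 fold change and its standard error, a Wald score, and a p-value with its adjusted p-value. The mean count of a gene was identical in all tables. No library totals were used, so depth is unknown.

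The 10 genes, the gene lists and the tests were chosen with earlier results of these data known. All 10 members are named. Of other lists, at most 4 genes per table were taken from those of lowest adjusted p. Further genes are named for lying in the cluster, for being absent, for going against most of their list or for being listed under both compounds. The genes most like a member are the 3 at the smallest root mean square distance among genes in exactly the same tables. Lengths and places are from GENCODE M21. The number tested came from the ratio of p to adjusted p: it made 80.5% (SB431542, 15169 genes), 81.1% (HLM006474, 15169) and 83.6% (the RUNX1 inhibitor, 13561) of checked ranks whole within 0.02. Differences between compounds use the root of the summed squares of both standard errors, which ignores the shared vehicle and is too wide where groups vary alike. Approximate group levels and the bounds for unlisted genes were added after the data were seen; the levels assume that fitted group means equal averages of normalised counts, and the bounds take the gene's largest listed standard error. Protein sequences were not used here. Python 3.11.15 with pandas 2.3.3 and scipy 1.17.1 was used, after checks on simulated data.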

Additional observations from a re-analysis of the deposited data

How the results depend on the processing

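With an absolute log2 fold change of at least 1, the listed genes numbered 314 for SB431542, 283 for HLM006474 and 86 for the RUNX1 inhibitor, and of the receptor genes 1 (Clec4n) remained for the RUNX1 inhibitor; fewer genes pass a higher limit by construction. With the shared vehicle variance taken out, the difference of 0.68 between SB431542 and HLM006474 for Clec4n had a 95% interval that excludes 0 (0.09 to 1.28). The other 23 alternatives on counts and differences stayed within 1.5 times or on the same side. Of 45 alternatives on single genes 7 lost the call and 38 did not. Those lost were Clec4n under HLM006474 with an adjusted p limit of 0.01, the same value, Msr1 and Scara5 (both compounds) with the log2 limit of 1, and Clec4e and Marco with a mean count of at least 50. Older symbols added no member. No paired analysis was possible because the tables carry no values per sample, and for the same reason leaving out replicates was not run. Clec4e and Marco had low counts and wide intervals. Their standard errors were also 1.56 and 1.66 times the median of listed genes of like count under SB431542.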
